A study of Homo sapiens with 14 samples.

Results

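The comparison set 2 libraries of cells given both 5-Ph-IAA and Nutlin against 2 libraries of cells given Nutlin alone, 4 of the 14 libraries of the series. Members were taken by their labels. All libraries came from HCT116, a human colon carcinoma line, engineered to carry osTIR1(F74G), a plant F-box protein with a mutated ligand pocket, and SAF-A fused to the mAID degron and a Halo tag. 5-Ph-IAA is the auxin analog that brings the degron-tagged protein to osTIR1(F74G), so that SAF-A is ubiquitinated and degraded. The combination libraries and the Nutlin libraries are labelled 3 h, without a Nutlin dose and without saying to which agent the time refers. The same set held 2 libraries of vehicle (DMSO) and 2 of 5-Ph-IAA without Nutlin for 3 h, which served as the background for the effect of 5-Ph-IAA. Total RNA was sequenced after ribosomal RNA removal with a stranded kit. Nothing in the labels says whether 2 replicates came from separate cultures, so the spread behind every p-value may be technical, and p-values speak for these libraries only.

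SAF-A, encoded by HNRNPU, is an abundant nuclear protein that binds both chromatin-associated RNA and DNA and is known for roles in chromatin organisation, retention of nuclear RNA and splicing. Nutlin blocks the pocket of MDM2 that holds p53, so that p53 escapes ubiquitination and raises its targets, among them CDKN1A, the inhibitor of cyclin-dependent kinases that enforces growth arrest, and MDM2 itself. ATF4 and DDIT3 are transcription factors of the integrated stress response, which raises genes of amino acid supply, redox balance and cell death. The question posed by the design is whether the Nutlin response is altered when SAF-A is removed.

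Depth was between 12.6 and 17.2 M counts per library (1 M is 1000000) in the set of 8. The 2 Nutlin replicates differed far more from each other than the replicates of the other groups. At a mean log2 CPM (counts per 1000000 counts) of at least 1, 486 of 13033 genes (3.73%) differed by more than 2-fold between the Nutlin replicates, against 74 (0.568%) between the combination replicates, 94 between the vehicle replicates and 78 between the 5-Ph-IAA replicates. Nutlin replicate 2 stood apart on the first principal component (22.5% of the variance), at 58.3 against -21.2 to 1.15 for the other 7 libraries. It held 0.189% mitochondrially encoded counts against 0.289% to 0.344%. On the second component (20.6%) Nutlin replicate 1 was the extreme library, at -42.2 against -19.7 to 24.3 for the other 7. Differences are therefore given against each Nutlin replicate as well as against both, and where a paragraph gives only 1 value it is that against both. The epithelial markers KRT8, at 2838 to 3413 CPM, and EPCAM, at 213 to 258 CPM, were high in every library, whereas the differentiated gut markers CDX1 and PHGR1 were at or near 0. Markers of other cell types (18 genes) summed to at most 0.000799% of the counts in any library, with CD3E, COL1A2, DCN, NEUROD1 and MYH7 at 0 in all 8.

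With both Nutlin libraries in the fit, 0 of 17251 genes passed an adjusted p of 0.05 (edgeR, 1404 genes or 8.14% at an unadjusted p under 0.05), whereas the Wald test of DESeq2 called 24. DESeq2 gave no adjusted p to 52 of 90 genes followed in this text, so its calls do not come from all 17251 genes. The lowest mean log2 CPM among its 24 calls was 7.03, for ZBED6. Against Nutlin replicate 1 alone, edgeR called 42 of 18401 genes (0.228%), 32 higher (0.174%) and 10 lower (0.0543%). Against Nutlin replicate 2 alone it called 2490 of 18318 (13.6%), 1403 higher (7.66%) and 1087 lower (5.93%). At an unadjusted p under 0.05 the 2 fits held 14.9% and 28.2% of their genes. In these fits the lone Nutlin library was assumed to vary like the other groups, and both share the combination libraries. The combination libraries lay above both Nutlin libraries for 2984 genes (17.3%) and below both for 3136 (18.2%), and these shares are the background for the counts of non-overlapping genes below. Likewise, where a list is said to have genes that rose or fell against a replicate, the shares of all genes called against that replicate are the background.

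**Figure D1:**
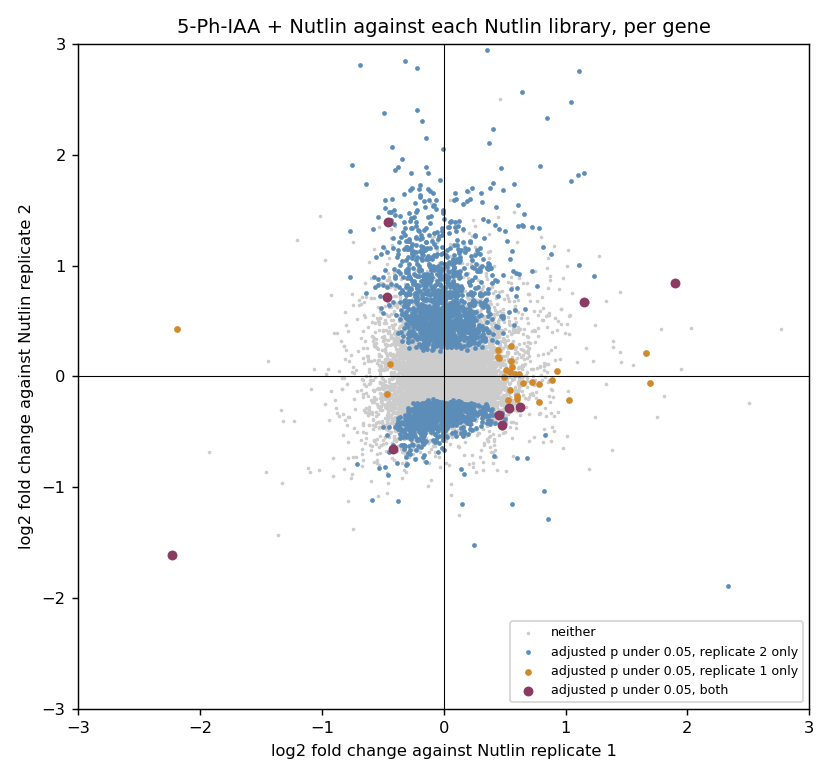
Log2 fold change of 5-Ph-IAA with Nutlin against Nutlin replicate 1 (x axis) and against Nutlin replicate 2 (y axis), 1 point per gene, for 13016 genes with a mean log2 CPM of at least 1 (6 lie outside the axes). Both axes use the same 2 combination libraries. Coloured points had an adjusted p under 0.05 against 1 or both Nutlin libraries, and those called against replicate 2 spread along the y axis above and below 0, while far fewer were called against replicate 1.

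HNRNPU (chr1:244840638-244864560, minus strand, hg38 by GENCODE 29) does not check the depletion at the mRNA level, because the degron acts on the protein. It stood at 505 and 572 CPM in the Nutlin libraries, 573 and 619 in the combination libraries, 640.0 and 634 with vehicle, and 646 and 639 with 5-Ph-IAA alone. The log2 difference of the combination was 0.15 ± 0.09 (SE), with an adjusted p of 0.696 in edgeR, and its sign turned under the correction for GC content and length. MDM2, the direct p53 target and p53 inhibitor, checks the Nutlin label: it read 348 and 411 CPM with Nutlin, 394 and 382 with the combination, and 246 and 276 with vehicle. Its log2 difference of Nutlin from vehicle was 0.54, which did not pass (adjusted p = 0.0661, edgeR). The combination libraries lay between the 2 Nutlin libraries for MDM2, with a log2 difference of 0.03 ± 0.10 (adjusted p = 0.953, edgeR) that was -0.09 against replicate 2 and -0.17 with the correction for GC content and length.

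CDKN1A (chr6:36676460-36687339, plus strand) read 537 and 519 CPM with Nutlin against 467 and 427 with the combination, 200.1 and 197 with vehicle, and 205 in both 5-Ph-IAA libraries. Both combination libraries lay below both Nutlin libraries and above every library without Nutlin. The log2 difference was -0.24 ± 0.09, did not pass the test with both Nutlin libraries (unadjusted p = 0.0187, adjusted p = 0.604, edgeR), and was -0.26 against replicate 1 (adjusted p = 0.105, edgeR) and -0.22 against replicate 2 (adjusted p = 0.0549, edgeR). On the per-length TPM scale (transcripts per 1000000) CDKN1A stood at 208 and 176 with Nutlin and 179 and 178 with the combination, so that replicate 2 did not lie above both combination libraries; on this scale the median of all genes against replicate 2 is shifted to 0.13, and to 0.02 against replicate 1.

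Replication-dependent histone genes had the lowest median of the 29 lists plotted. Their mRNAs, which mostly end in a stem-loop in place of a poly(A) tail, supply histones while DNA is copied, and total RNA libraries retain them. Of 45 genes on the list, 38 were tested; both combination libraries lay below both Nutlin libraries for 33 (86.8%, against 18.2% of all genes) and above both for 1. The list median was -0.39 on the log2 scale, against 0.01 over all genes tested, and was -0.25 against Nutlin replicate 1 and -0.52 against replicate 2. DESeq2 called 20 lower genes, of which 18 were replication-dependent histone genes by symbol. Of these, H3C13, H3C15, H2AC18, H2BC12 and H2BC26 are not on the list, so the 18 are not a share of the 38. In edgeR none of the 38 passed with both Nutlin libraries, 30 had an unadjusted p under 0.05, 31 fell against replicate 2, and 1 fell against replicate 1.

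Every histone class contributed. The 11 H2B genes tested were all below both Nutlin libraries, with a median of -0.40 and values from -0.78 to -0.20. The 5 H3 genes were also all below, with a median of -0.41. Among 10 H2A genes 8 were below, with a median of -0.40, and both linker histone H1 genes tested were below, with a median of -0.35. The 10 H4 genes ranged most widely, from -0.58 to 0.57, with 7 below and 1 above. Many histone genes are near-identical copies between which RSEM divides reads, so values of single histone genes are uncertain.

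By library, the histone list sat at a median of 0.26 and 0.52 above the vehicle mean (log2) in the 2 Nutlin libraries, and at 0.01 and 0.02 in the 2 combination libraries. The 5-Ph-IAA libraries without Nutlin were at 0.01 and -0.04, and the vehicle libraries at 0.08 and -0.08. Thus the combination libraries lay within the range of the libraries without Nutlin and the Nutlin libraries lay above it. Histone genes took 1.65% and 1.91% of the counts with Nutlin, and 1.41% and 1.42% with the combination. Less histone mRNA per cell and fewer cells in S phase cannot be told apart in bulk RNA. The 30 genes of S phase and replication had a median of -0.08, which was -0.01 against replicate 1 and -0.16 against replicate 2, with 8 lying below both Nutlin libraries and 3 above. CCNE1, the cyclin of S phase entry, fell against replicate 2 (-0.44, adjusted p = 0.00409, edgeR) and was at -0.11 against replicate 1 (adjusted p = 0.607, edgeR). MCM5, a helicase subunit, fell against replicate 2 (-0.28, adjusted p = 0.0159, edgeR) and was at -0.18 against replicate 1.

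H2BC13, which encodes an H2B, was the 1 histone gene called against both Nutlin replicates. Among the 24 genes called by DESeq2 it was absent, but its mean log2 CPM of 6.7 lay below the lowest of theirs, 7.03. DESeq2 left many genes without an adjusted p, so this absence need not be a test result. H2BC13 read 129.9 and 153 CPM with Nutlin, 97.0 and 97.8 with the combination, 94.1 and 89.6 with vehicle, and 92.1 and 91.4 with 5-Ph-IAA alone. The 6 libraries other than Nutlin lay within 10 CPM of one another, and both Nutlin libraries stood above all of them. The log2 difference was -0.54 ± 0.10 against both (unadjusted p = 0.000286, adjusted p = 0.604, edgeR), -0.41 against replicate 1 (adjusted p = 0.0493, edgeR) and -0.65 against replicate 2 (adjusted p = 9.17e-05, edgeR). H3C10, an H3 gene that lies near it on chromosome 6, read 540.0 and 648 CPM with Nutlin and 439.9 and 408 with the combination. Its log2 difference was -0.49 ± 0.11 (adjusted p = 0.0271 in DESeq2), -0.35 against replicate 1 and -0.62 against replicate 2. Vehicle gave 465 and 413 CPM for H3C10 and 5-Ph-IAA alone 367 and 406.

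The 2 genes lie near each other on chromosome 6, on opposite strands, and need not be adjacent. Their start regions are shown because both belong to a group that read lower together. Each is 300 bases of RefSeq GRCh38.p14, 250 before the annotated start and 50 after it, 5′ to 3′ on the gene's strand: chr6:27807880-27808179 on the minus strand for H2BC13 and chr6:27809801-27810100 on the plus strand for H3C10. Capitals mark CCAAT and TATAAA on either strand.
H2BC13: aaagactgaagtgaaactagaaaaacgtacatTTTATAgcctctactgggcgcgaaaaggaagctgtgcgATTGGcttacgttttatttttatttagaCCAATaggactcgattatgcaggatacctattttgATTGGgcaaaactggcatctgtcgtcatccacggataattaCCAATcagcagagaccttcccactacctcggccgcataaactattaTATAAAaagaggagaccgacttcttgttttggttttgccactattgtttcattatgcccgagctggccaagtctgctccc
H3C10: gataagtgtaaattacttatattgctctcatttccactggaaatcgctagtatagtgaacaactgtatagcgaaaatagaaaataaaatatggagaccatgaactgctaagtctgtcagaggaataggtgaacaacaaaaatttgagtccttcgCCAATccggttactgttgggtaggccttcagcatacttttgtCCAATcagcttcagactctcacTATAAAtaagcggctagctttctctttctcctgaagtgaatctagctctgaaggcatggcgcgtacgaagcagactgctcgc
The H2BC13 window held CCAAT at 4 places and TATAAA at 2, and the H3C10 window held CCAAT at 2 places and TATAAA at 1. CCAAT occurred in 34.6% and TATAAA in 11.5% of all 35116 windows of this length in the table. A match describes the letters only and is no evidence of binding.

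**Figure D2:**
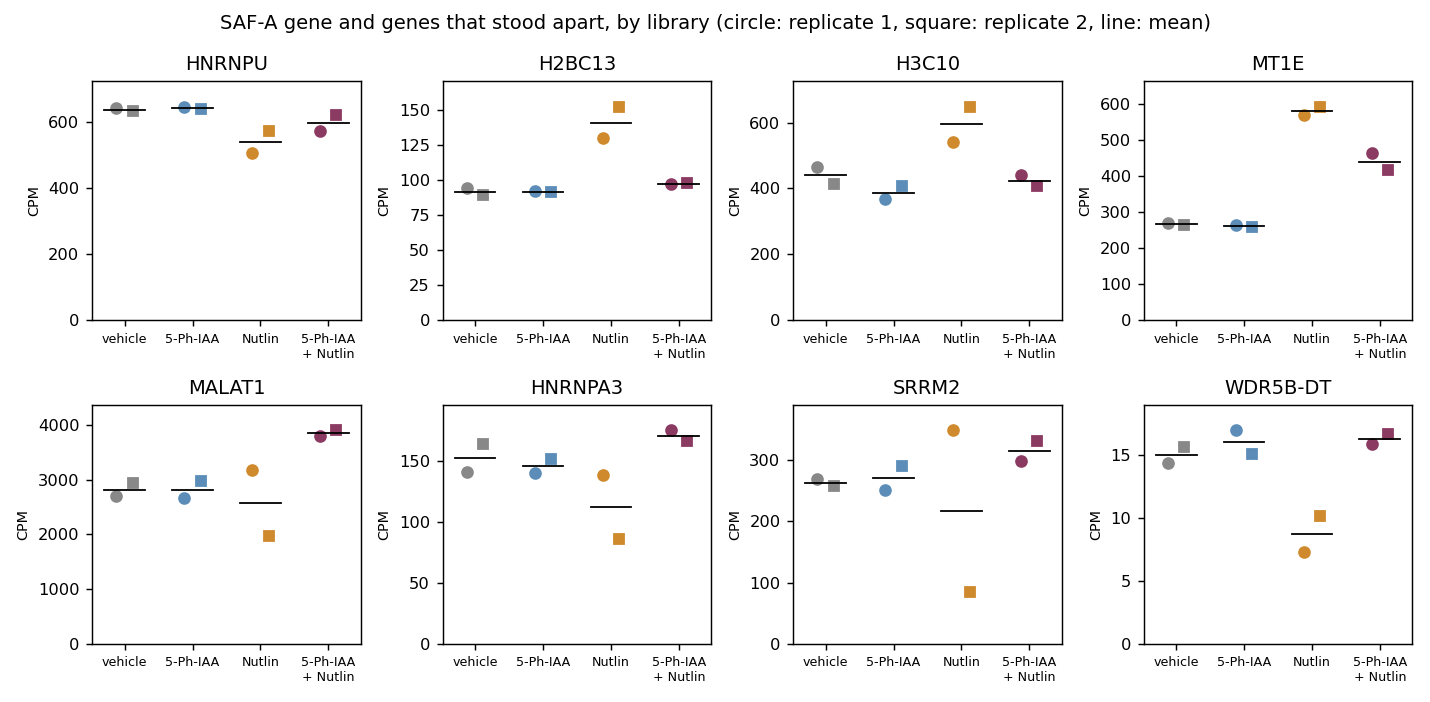
CPM in each library for HNRNPU and 7 genes that stood apart, by group (vehicle, 5-Ph-IAA, Nutlin, 5-Ph-IAA with Nutlin). Circles are replicate 1, squares replicate 2, and lines the mean of 2. H2BC13 sits at 129.9 and 153 with Nutlin and between 89.6 and 97.8 elsewhere, while SRRM2 sits at 349 and 84.6 in the 2 Nutlin libraries.

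Several integrated stress response genes that Nutlin raised read lower in the combination libraries, and none passed the test with both Nutlin libraries in the fit. CHAC1, which degrades glutathione and is a target of ATF4, read 72.4 and 60.5 CPM with Nutlin, 57.3 and 49.2 with the combination, 3.33 and 3.15 with vehicle, and 4.11 and 4.80 with 5-Ph-IAA alone. In CPM its combination libraries lay below both Nutlin libraries and far above every library without Nutlin. On the TPM scale CHAC1 stood at 40.89 and 29.03 with Nutlin and 30.63 and 29.01 with the combination, so the groups overlapped. The log2 difference was -0.32 ± 0.13 (unadjusted p = 0.0300, edgeR), -0.44 against replicate 1 and -0.19 against replicate 2, neither past the threshold. With 5-Ph-IAA but no Nutlin the difference was 0.45, and the difference of the 2 differences was -0.77 ± 0.24 (unadjusted p = 0.00863, not past the adjusted threshold, edgeR).

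The CHAC1 start region is shown because CHAC1 had a steep response to Nutlin. It covers chr15:40953221-40953520 on the plus strand (RefSeq, GRCh38.p14, 250 bases before the start and 50 after). Capitals mark TGATGNAA, the composite element that ATF4 and a C/EBP partner are known to bind, and CCAAT, both searched on either strand.
CHAC1: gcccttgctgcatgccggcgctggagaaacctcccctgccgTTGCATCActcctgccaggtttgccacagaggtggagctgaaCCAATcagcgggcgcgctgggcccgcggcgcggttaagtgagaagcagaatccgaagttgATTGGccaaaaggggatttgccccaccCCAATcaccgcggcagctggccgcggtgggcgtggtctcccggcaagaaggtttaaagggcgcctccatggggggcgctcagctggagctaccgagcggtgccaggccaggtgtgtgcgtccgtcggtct
TGATGNAA occurred once here, as its reverse complement, and in 3.62% of all 35116 windows. CCAAT occurred at 3 places.

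DDIT3, which encodes the stress factor CHOP, read 147 and 152 CPM with Nutlin and 126 and 112 with the combination, against 14.5 to 18.3 without Nutlin. Its log2 difference was -0.33 ± 0.10, and it passed against replicate 2 (-0.36, adjusted p = 0.0209, edgeR) but not against replicate 1 (-0.31, adjusted p = 0.151, edgeR). ATF4 itself read 748 and 815 CPM with Nutlin, 704 and 644 with the combination, and 377 to 416 without Nutlin. Its difference against replicate 2 also passed (-0.28, adjusted p = 0.0220, edgeR), whereas that against replicate 1 was -0.15. TRIB3, a pseudokinase that feeds back on this pathway, read 119 and 104 CPM against 93.9 and 80.8, a log2 difference of -0.36 ± 0.11 (adjusted p = 0.604, edgeR), -0.45 against replicate 1 and -0.26 against replicate 2. On the TPM scale the combination stayed below both Nutlin libraries for DDIT3 (148 and 137 against 126 and 122). So it did for ATF4 (428 and 415 against 398 and 397) and, narrowly, TRIB3 (44.41 and 34.71 against 34.66 and 32.24). The 13 genes tested on the stress response core had 5 below both Nutlin libraries in CPM and 2 above. Their median was -0.06, which was 0.01 against replicate 1 and -0.05 against replicate 2, so the list as a whole lay near the median of all genes. In TPM 30.8% of the list lay below both and 7.69% above, against 9.32% and 24.8% of all genes.

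Among stress outputs, DDIT4, an inhibitor of mTORC1, read 524 and 587 CPM with Nutlin and 473 and 430.1 with the combination (log2 difference -0.30 ± 0.13), which was -0.38 against replicate 2 (adjusted p = 0.0265, edgeR) and -0.21 against replicate 1. GDF15, a secreted stress cytokine that p53 also raises, read 237 and 191 against 178 and 166, and it passed against replicate 1 (-0.46, adjusted p = 0.0482, edgeR) but not against replicate 2 (-0.16). On the TPM scale GDF15 stood at 166 and 119 with Nutlin and 124 and 125 with the combination. Nutlin replicate 2 thus lay below both combination libraries on that scale. DDIT4 stayed lower in the combination on it, at 261 and 254 with Nutlin and 220 in both combination libraries. Other outputs did not separate the groups: SESN2, STC2 and VEGFA had log2 differences of -0.08, -0.05 and -0.02. Against replicate 1 these were -0.21, -0.21 and -0.06, and against replicate 2 they were 0.06, 0.12 and 0.02. SLC7A11, the cystine transporter, went the other way, at 129 and 136 CPM with Nutlin and 152 and 143 with the combination (0.16 ± 0.09, and 0.19 and 0.11 against the 2 replicates). PSAT1, of serine synthesis, was likewise higher in both combination libraries, at 159 and 157 CPM against 149.5 and 133 (0.08 and 0.24 against the 2 replicates). Neither gene passed the test, SLC7A11 turned to -0.05 with the correction for GC content and length, and ASNS, the asparagine synthetase, had a log2 difference of 0.00. The 22 amino acid and glutathione genes tested had 7 below and 3 above, with a median of -0.06 that was -0.14 against replicate 1 and -0.03 against replicate 2. On the TPM scale 27.3% of them lay below both Nutlin libraries and 27.3% above, against 9.32% and 24.8% of all genes. The 20 aminoacyl-tRNA synthetases had 7 below, none above and a median of -0.06 that was -0.02 and -0.12 against the 2 replicates; 6 of these synthetases fell against replicate 2, among them FARSA (-0.36, adjusted p = 0.00849, edgeR), and 2 rose.

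**Figure D3:**
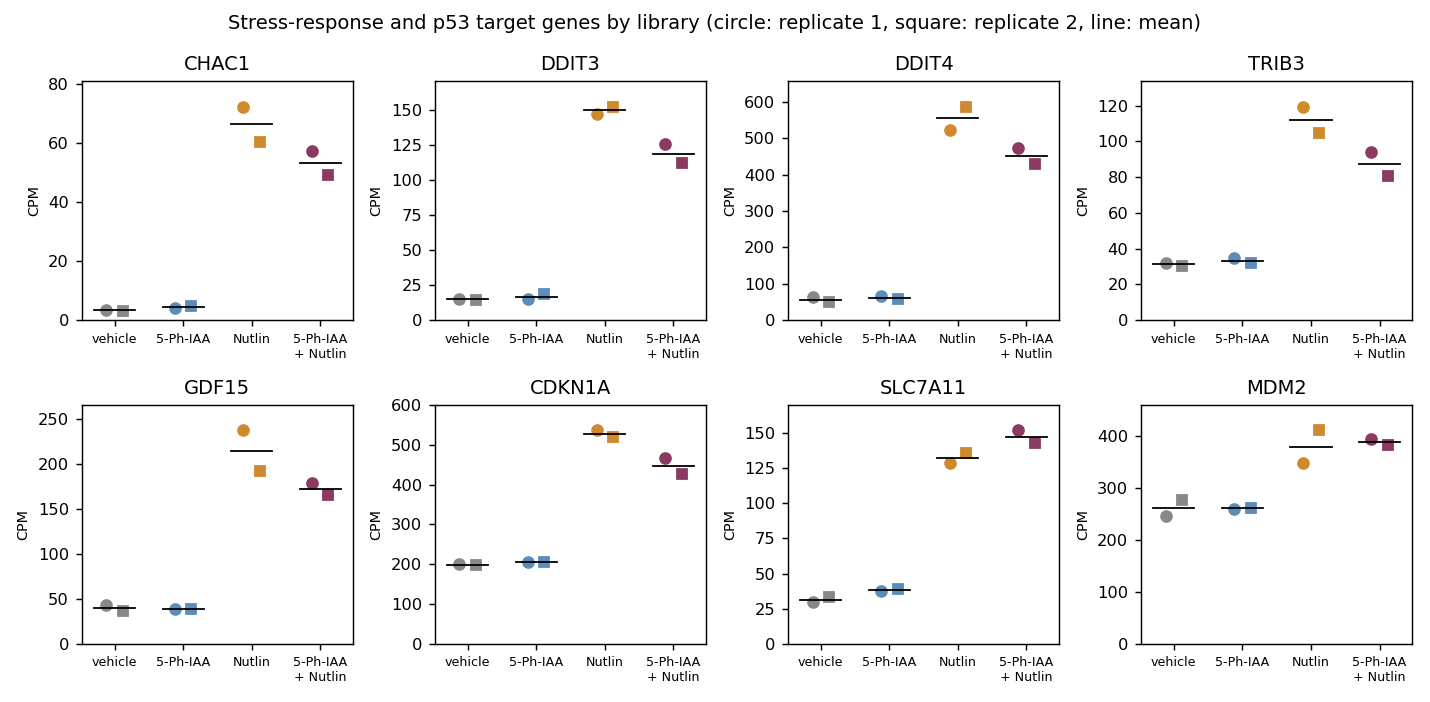
CPM in each library for 8 stress-response and p53 target genes, by group. Circles are replicate 1, squares replicate 2, and lines the mean of 2. All 8 are higher with Nutlin than with vehicle, and for CHAC1, DDIT3, DDIT4, TRIB3, GDF15 and CDKN1A both combination points lie below both Nutlin points.

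The p53 lists had small medians of both signs. Growth arrest, cell death and other targets had 36.4%, 37.5% and 36.4% of genes below both Nutlin libraries, against 18.2% of all genes. For the feedback regulators that share was 9.09%. On the TPM scale the shares for growth arrest, cell death and other targets were 0%, 6.25% and 9.09%, against 9.32% of all genes. The 11 genes of p53 and its feedback regulators had 3 above, 1 below and a median of 0.05 (0.07 and 0.04 against the 2 replicates). USP7, the deubiquitinase of MDM2 and p53, rose against replicate 2 (0.47, adjusted p = 0.00108, edgeR) and stood at 0.14 against replicate 1. The 11 growth arrest targets had 2 above and 4 below, with a median of -0.05 that was -0.22 against replicate 1 and 0.05 against replicate 2. BTG2, an antiproliferative member of that list, read 29.3 and 31.7 CPM with Nutlin and 35.7 and 32.7 with the combination (0.22 and 0.10 against the 2 replicates). Of the 16 cell death targets 6 were below both Nutlin libraries (37.5%) and 1 above, with a median of -0.08 that was -0.02 against replicate 1 and -0.17 against replicate 2. BID, which links death receptors to mitochondria, fell against replicate 2 (-0.47, adjusted p = 0.00371, edgeR), with 68.4 and 81.2 CPM under Nutlin and 60.5 and 57.0 under the combination. BBC3, a BH3-only killer, was at -0.22 and -0.19 against the 2 replicates, BAX, which permeabilises mitochondria, at -0.29 and -0.19, and APAF1, of the apoptosome, at 0.32 and 0.21, none of them passing. The 22 other targets had 8 below and 1 above, with a median of -0.04 that was -0.03 against replicate 1 and -0.15 against replicate 2. ZMAT3, an RNA-binding p53 target, was at 0.34 ± 0.12 (unadjusted p = 0.0137, edgeR), and at 0.37 and 0.31 against the 2 replicates.

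Across the 7 stress and p53 lists 109 genes were tested, of which Nutlin raised 30 over vehicle (adjusted p under 0.05, edgeR) and lowered none, beside 0.394% of all genes raised and 0.0696% lowered. The lists were chosen with earlier results of these data known, so the excess of raised genes is not independent of that choice. Of these 30, the combination libraries lay below both Nutlin libraries for 15, above both for 3 (BTG2, PSAT1 and SLC7A11) and overlapped them for 12. All 30 had both combination libraries above both vehicle libraries. Their log2 difference had a median of -0.09, from -0.39 to 0.16, beside a median response to Nutlin of 1.18. The 30 genes were picked with the same Nutlin and vehicle libraries that the combination is compared with. Neither their direction against Nutlin nor their standing above vehicle is therefore independent of the choice. How many of all genes stood above both vehicle libraries was not counted. On the deposited TPM scale 7 of the 30 (23.3%) were below both Nutlin libraries, against 9.32% of all genes on that scale, and 6 (20%) were above, against 24.8% of all genes. Relative to the median of all genes, their TPM median was -0.07 against replicate 1, 0.01 against replicate 2 and -0.03 against both. Against both, the TPM medians of the stress response core, amino acid, cell death and growth arrest lists were -0.04, -0.06, -0.07 and -0.02 relative to all genes. The histone genes had 27 of 38 (71.1%) below on the TPM scale and none above, with a median of -0.32 relative to all genes.

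**Figure D4:**
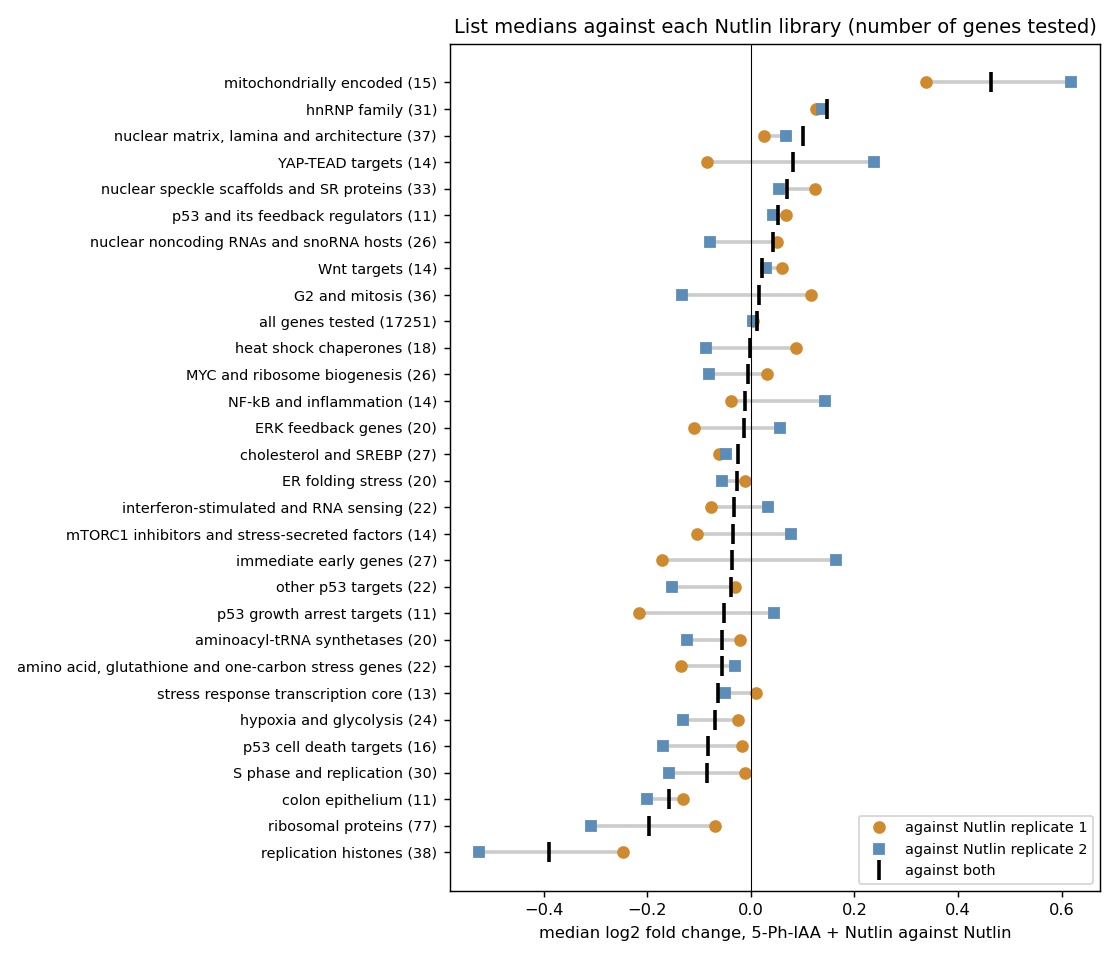
Median log2 fold change of each gene list, 5-Ph-IAA with Nutlin against Nutlin replicate 1 (circle), replicate 2 (square) and both (bar), with the number of genes tested. Replication histones lie lowest, at -0.25 and -0.52, and mitochondrially encoded genes highest, at 0.34 and 0.62.

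Ribosomal protein genes were lower as a group by less. Of 77 tested, 53 lay below both Nutlin libraries (68.8%) and 1 above, with a median of -0.20, which was -0.07 against replicate 1 and -0.31 against replicate 2. Against replicate 2, 64 fell and 2 rose; against replicate 1 none passed. Large and small subunit genes had medians of -0.19 and -0.20. By library the list stood 0.26 above vehicle in Nutlin replicate 2 and 0.02 in replicate 1, and at -0.02 and -0.09 in the combination libraries, so replicate 2 is the library that stood apart. Ribosomal protein genes have many processed copies in the genome, and reads shared with them are divided by RSEM.

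Mitochondrially encoded genes went the other way, with 13 of 15 above both Nutlin libraries (86.7%), none below and a median of 0.46, which was 0.34 against replicate 1 and 0.62 against replicate 2. Against replicate 2, 10 rose. All 7 complex I subunits were above, with a median of 0.46. The 2 mitochondrial ribosomal RNAs had the widest differences: MT-RNR2 read 29.4 and 9.32 CPM with Nutlin and 57.9 and 68.5 with the combination, but 48.4 and 19.0 in the 2 vehicle libraries. The vehicle replicates thus differed by more than 2-fold from each other, and what ribosomal RNA removal leaves of these molecules was not tested. The whole list stood at 0.30 and -0.30 in the 2 vehicle libraries around their own mean, a spread that contains the combination libraries at 0.06 and 0.10.

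Genes of RNA processing, the field in which SAF-A works, had list medians slightly above that of all genes. The 31 hnRNP family genes had 13 above both Nutlin libraries (41.9%, against 17.3% of all genes), 3 below and a median of 0.15, which was 0.13 against replicate 1 and 0.14 against replicate 2; 12 rose and 2 fell against replicate 2. After the correction for GC content and length the median was 0.04. HNRNPA3, which packages nascent transcripts, read 139 and 86.0 CPM with Nutlin and 175 and 166 with the combination, beside 141 and 164 with vehicle, a log2 difference of 0.60 ± 0.18 (adjusted p = 0.0383 in DESeq2) that was 0.30 against replicate 1 and 0.98 against replicate 2. HNRNPUL2, a paralog of SAF-A, was at 0.57 ± 0.20 (unadjusted p = 0.0193, edgeR), 0.23 against replicate 1 and 0.99 against replicate 2. TAF15, of the FET family, was at 0.52 ± 0.15, with 0.32 and 0.74 against the 2 replicates. For these 3 genes replicate 2 held the lowest of the 8 values, and the difference against replicate 1 was smaller and did not pass.

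The 33 genes of nuclear speckle scaffolds and SR proteins had 12 above and 4 below, with a median of 0.07 that was 0.12 against replicate 1 and 0.06 against replicate 2. U2AF1, which recognises the 3′ splice site, read 65.3 and 51.5 CPM with Nutlin and 73.3 and 87.8 with the combination (0.47 ± 0.13), and rose against replicate 2 (0.64, adjusted p = 0.00200, edgeR) but not against replicate 1 (0.30). RBM25, a regulator of alternative splicing, read 84.6 and 79.0 against 104 and 108 (0.37 ± 0.10), and rose against replicate 2 (0.42, adjusted p = 0.00822, edgeR), with 0.33 against replicate 1. SRRM2, a scaffold of speckles, was picked out after its values were seen, because it shows how far the Nutlin replicates disagree: 349 and 84.6 CPM with Nutlin against 299 and 332 with the combination. Its log2 difference was -0.14 against replicate 1 (adjusted p = 0.473, edgeR) and 1.89 against replicate 2 (adjusted p = 1.4e-07, edgeR). Of the 37 nuclear matrix, lamina and architecture genes 8 were above and 5 below, with a median of 0.10 that was 0.03 and 0.07 against the 2 replicates. NIPBL, the cohesin loader, read 88.7 and 73.9 CPM with Nutlin and 114 in both combination libraries (0.49 ± 0.11), and rose against replicate 2 (0.62, adjusted p = 0.000469, edgeR), with 0.36 against replicate 1 (adjusted p = 0.0823, edgeR). SMC4, a condensin subunit, rose against replicate 1 (0.45, adjusted p = 0.0349, edgeR) and was at 0.18 against replicate 2.

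Among 26 nuclear noncoding RNAs and snoRNA hosts tested, 7 were above both Nutlin libraries and 3 below, with a median of 0.04 whose sign turned with the library, from 0.05 against replicate 1 to -0.08 against replicate 2. MALAT1, the noncoding RNA of nuclear speckles, read 3173 and 1977 CPM with Nutlin and 3805 and 3907 with the combination, beside 2704 and 2936 with vehicle and 2663 and 2983 with 5-Ph-IAA alone. The combination libraries were the highest of the 8. Its log2 difference was 0.58 ± 0.18 (adjusted p = 0.0296 in DESeq2), 0.28 against replicate 1 (adjusted p = 0.0957, edgeR) and 0.96 against replicate 2 (adjusted p = 5.34e-06, edgeR). TUG1 and FTX, at 0.42 and 0.41 against both, were at 0.26 and 0.24 against replicate 1 without passing and rose by 0.58 each against replicate 2 (adjusted p = 0.00446 and 0.00492, edgeR).

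The other genes called by DESeq2 outside the histones were MT1E and TUBB3, lower, and ARHGAP11A and ZBED6, higher. MT1E, a metal-binding metallothionein with several close copies, read 569 and 593 CPM with Nutlin and 463 and 416 with the combination, against 259 to 271 without Nutlin. Its log2 difference was -0.40 ± 0.09 in edgeR (adjusted p = 0.0271 in DESeq2), and it was -0.37 and -0.44 against the 2 replicates. TUBB3, a tubulin, read 188 and 198 against 147 and 151 (-0.34 and -0.42 against the 2 replicates). ARHGAP11A read 124 and 120.4 against 161 and 157 (0.36 and 0.40). ZBED6, a transposon-derived repressor, read 109 and 90.8 against 136 and 130.1 (0.29 and 0.54). For these 4 genes the groups did not overlap, and ARHGAP11A and ZBED6 in the combination lay nearer to their vehicle levels of 160.3 and 174 and of 139 and 147 CPM.

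Remaining programmes gave small medians. The 36 genes of G2 and mitosis had a median of 0.02, with opposite signs against replicate 1 (0.12) and replicate 2 (-0.13); 3 rose against replicate 1 and, against replicate 2, 3 rose and 10 fell. Immediate early genes (27 tested) likewise had -0.17 and 0.16, and 8 lay below both. FOS, a subunit of AP-1, was at 67.8 and 63.5 CPM with Nutlin and 50.7 and 48.2 with the combination (-0.41 ± 0.13, and -0.46 and -0.36 against the 2 replicates, neither passing). It was also lower without Nutlin, at 73.8 and 77.6 CPM with 5-Ph-IAA against 106 and 80.3 with vehicle (-0.30, unadjusted p = 0.0388, edgeR), and the 2 effects differed by -0.10 (unadjusted p = 0.584, edgeR). YAP-TEAD targets (14 tested) had 4 above, none below, and medians of -0.08 and 0.24. Heat shock chaperones (18) had 3 above and 2 below, with medians of 0.09 and -0.09. Above was HSPH1, a co-chaperone, at 167 and 184 CPM with Nutlin and 214 and 215 with the combination (0.36 and 0.22 against the 2 replicates, neither passing). Colon epithelium genes (11) had 6 below, none above and a median of -0.16 (-0.13 and -0.20 against the 2 replicates), with 5 falling and 1 rising against replicate 2; KRT19, a keratin, read 2480.0 and 2608 CPM with Nutlin and 2162 and 2025 with the combination (-0.24 and -0.32). The lists of ER folding stress, cholesterol synthesis, ERK feedback, Wnt targets, hypoxia and glycolysis, NF-kB, interferon, MYC and ribosome biogenesis, and mTORC1 inhibitors had medians from -0.07 to 0.02 against both Nutlin libraries, from -0.11 to 0.06 against replicate 1 and from -0.13 to 0.14 against replicate 2.

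BMP4, a secreted growth factor on the Wnt target list, was lower in both Nutlin libraries than in every other library. It read 30.2 and 28.3 CPM with Nutlin, 35.8 and 40.8 with the combination, 54.2 and 50.2 with vehicle, and 47.6 and 49.5 with 5-Ph-IAA alone. The log2 difference was 0.39 ± 0.11, past the threshold against replicate 2 (0.43, adjusted p = 0.0223, edgeR) and not against replicate 1 (0.35, adjusted p = 0.182, edgeR).

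Of 18203 genes tested in both single-replicate fits, 11 were called in both, 5 with the same sign and 6 with opposite signs. Higher in both were SMG1P3 and WDR5B-DT. WDR5B-DT, a divergent noncoding transcript, read 7.33 and 10.2 CPM with Nutlin, 15.9 and 16.7 with the combination, and at least 14.4 without Nutlin, which is a log2 difference of 1.15 against replicate 1 (adjusted p = 0.0206, edgeR) and 0.68 against replicate 2 (adjusted p = 0.0108, edgeR). SMG1P3, a pseudogene copy of the kinase gene SMG1, read 9.20 and 19.1 CPM with Nutlin and 26.4 and 42.0 with the combination, and its reads cannot be fully told from those of its copies. Lower in both were H2BC13, UTP14C and ENSG00000288637. UTP14C held 68 and 76 counts in the Nutlin libraries and 0 in the other 6 libraries, and it overlaps ALG11 on chromosome 13, so reads that both genes share are divided by RSEM. ENSG00000288637, which has no symbol here, held 268 and 222 counts with Nutlin, 57 and 85 with the combination, 161 and 82 with vehicle, and 165 and 143 with 5-Ph-IAA alone.

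The 6 genes with opposite signs show the disagreement of the Nutlin replicates most plainly. FASN, the fatty acid synthase, read 598 and 165 CPM in the Nutlin libraries and 432 and 436 in the combination libraries, so it was lower against replicate 1 (-0.46, adjusted p = 0.0412, edgeR) and higher against replicate 2 (1.39, adjusted p = 1.78e-06, edgeR). ITGB4, an integrin subunit, followed it with 195 and 85.9 against 139 and 144 CPM. CAPZA2, CCNG1, NAE1 and TTK had the reverse order. CCNG1, a cyclin raised by p53, read 114 and 196 CPM with Nutlin and 157 and 154 with the combination, while TTK, a spindle checkpoint kinase, read 76.5 and 135 against 109 and 113. In each of the 6 genes both combination libraries lay between the Nutlin replicates.

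The 2 Nutlin replicates also departed from the combination along different properties of the transcripts, among 15782 of the 17251 genes (91.5%) with a GENCODE 29 model. Against replicate 1, the median log2 difference went from 0.21 in the quintile of genes with the lowest GC content to -0.16 in the quintile with the highest. Against replicate 2 the same quintiles ran from -0.06 to 0.01. By transcript length, the medians against replicate 2 went from -0.11 in the shortest quintile to 0.16 in the longest, with 81 genes higher and 350 lower among the shortest and 669 higher and 56 lower among the longest. Against replicate 1 they went from -0.03 to 0.05, and for 5-Ph-IAA against vehicle they lay between -0.003 and 0.001. Histone and ribosomal protein mRNAs are short. With a correction for GC content and length, chosen after seeing the data, the histone median was -0.29 and that of the ribosomal proteins -0.15, while 12 genes were called against replicate 1 and 2459 against replicate 2.

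**Figure D5:**
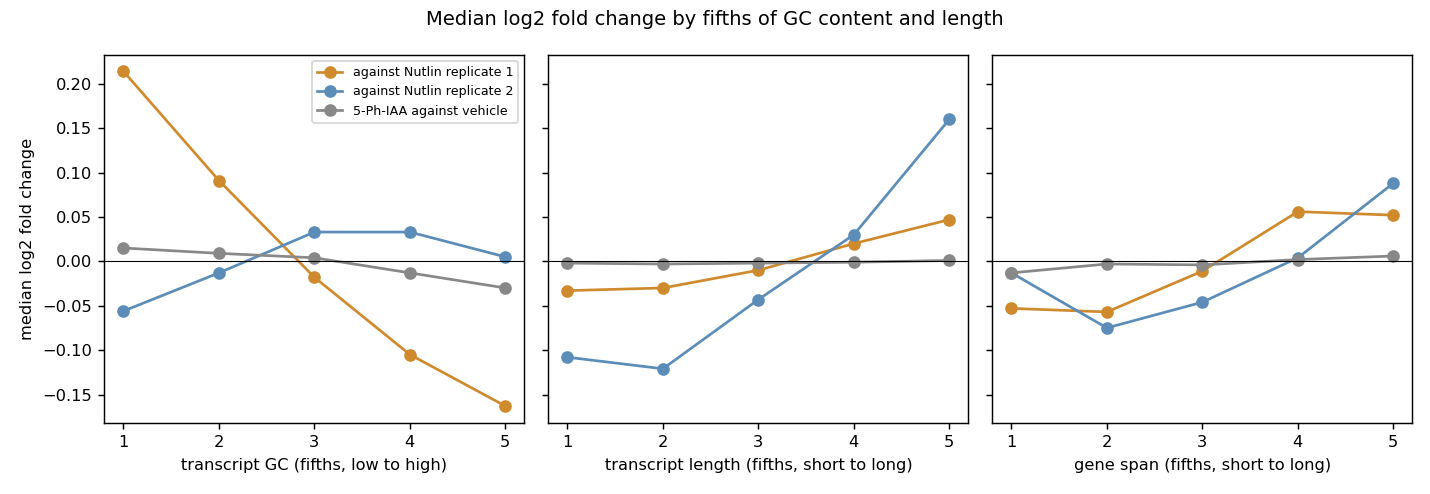
Median log2 fold change in quintiles of genes by transcript GC content, transcript length and gene span, for 5-Ph-IAA with Nutlin against Nutlin replicate 1 and against replicate 2, and for 5-Ph-IAA against vehicle. The medians run from 0.21 to -0.16 with GC against replicate 1 and from -0.11 to 0.16 with length against replicate 2, while those without Nutlin stay near 0.

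Without Nutlin, 5-Ph-IAA against vehicle gave 0 of 17251 calls in edgeR, with 245 genes (1.42%) at an unadjusted p under 0.05 and 1 call in DESeq2, INO80B-WBP1, a readthrough transcript at 0 counts in both vehicle libraries and at 63 and 23 with 5-Ph-IAA. The histone list was at a median of -0.02 there. The fit of 8 used 1 shared estimate of the spread, which includes that between the Nutlin replicates. Its common coefficient of variation was 0.114, against 0.0595 when either Nutlin replicate was left out. With only the compared groups, 9 genes passed and 508 of 15968 had an unadjusted p under 0.05 (edgeR). The 0 calls therefore do not show that 5-Ph-IAA alone had no effect. A test of whether the 5-Ph-IAA effect differed with and without Nutlin called 0 genes in edgeR (623, or 3.61%, at an unadjusted p under 0.05) and 1 in DESeq2, ENSG00000288637. For H2BC13 the difference of the 2 effects was -0.54 ± 0.14 (unadjusted p = 0.00336, edgeR), for NIPBL 0.46 ± 0.15 (unadjusted p = 0.0131, edgeR), for CDKN1A -0.29 ± 0.12 (unadjusted p = 0.0406, edgeR) and for BMP4 0.50 ± 0.15 (unadjusted p = 0.00855, edgeR). None of these passed after adjustment over all genes. Without Nutlin replicate 1 the same test called 1035 genes, and without Nutlin replicate 2 it called 5, so a difference in effect could not be separated from the choice of Nutlin library.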

How the data were processed

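Per the file headers, the authors deposited RSEM gene tables with expected counts and TPM for 78686 gene identifiers in each library. The submitters' processing notes name STAR 2.7.10b, RSEM, DESeq2 1.48.1 and hg38, without their roles; the annotation release is not given in the sources used here. Expected counts were rounded, and the 8 libraries of the Nutlin set were fitted together in R 4.3.3 with edgeR 4.0.16 (TMM factors, filterByExpr with a minimum count of 10 and total of 15, quasi-likelihood F tests, 1 coefficient per group, Benjamini-Hochberg adjustment over all genes tested, threshold 0.05). The standard error is the absolute log2 fold change over the square root of F. DESeq2 1.42.0 was an alternative. TPM was used for levels per length and, with a pseudocount of 1, as another scale. Log CPM for components and list medians used a prior count of 2. The same fit was repeated without each Nutlin library. The script was tested on simulated counts. Groups came from the labels.

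Members and the 30 gene lists were chosen with earlier results of these data known. Named genes are HNRNPU, MDM2 and CDKN1A, those called with 1 sign against each Nutlin library, the members of each list with the smallest p, and stress or p53 members raised by Nutlin. Some of them are given only within their list's counts. The strongest genes called against both Nutlin libraries together were also to be named, but 0 passed. DESeq2 calls and the 6 genes of opposite sign were added after their values were seen. Alternatives were DESeq2, RLE factors, no count filter, a replicate block, all 14 libraries, only the groups compared, leaving out each library and, chosen after seeing the data, a GC and length correction, a crossed block and the TPM scale. Symbols were given to 42165 identifiers and GENCODE 29 positions to 57288.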

Additional observations from a re-analysis of the deposited data

How the results depend on the processing

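The count of calls for the combination against Nutlin, 0 in edgeR, became 24 (4 higher, 20 lower) with DESeq2, 136 (81 higher, 55 lower) of 37021 genes without the count filter, and from 0 to 2490 on leaving out each library (2490 without Nutlin replicate 1, 42 without Nutlin replicate 2, 0 without either combination library). It stayed at 0 with RLE factors, with all 14 libraries, with only the compared groups, and with the GC and length correction. For 5-Ph-IAA without Nutlin it became 1 with DESeq2, 53 without the filter and 9 with only the compared groups. For the difference in effect it became 1 with DESeq2, 57 without the filter, and 0 to 1035 on leaving out each library. With the replicate block the counts were 0, 0 and 0. Same-numbered deviations correlated at r = -0.111 between the Nutlin and combination groups and -0.203 to 0.0856 between other pairs. These values cannot decide whether libraries were paired, because the spread between the Nutlin replicates may hide it. The labels do not state a pairing. A crossed pairing, added after seeing the data, gave 0. The cause of these moves was not tested.

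Of 90 genes followed, 78 kept their sign under every alternative that gave a value; 38 had a value under all 12, and 52 had no adjusted p in DESeq2 and so no value there. On leaving out 1 library at a time, the log2 difference crossed 0 for ASNS (-0.0528 to 0.0508), MDM2 (-0.0874 to 0.158), PLK3 (-0.286 to 0.217), PMAIP1 (-0.220 to 0.0593), SESN2 (-0.212 to 0.0555), SRRM2 (-0.144 to 1.89), STC2 (-0.207 to 0.118), TNFRSF10B (-0.0946 to 0.0300) and VEGFA (-0.113 to 0.0633). With the GC and length correction it took the other sign for GADD45A (0.0162), HNRNPU (-0.0886), MDM2 (-0.169), PLK3 (0.0725) and SLC7A11 (-0.0523), and with all 14 libraries for ASNS (-0.00442). Of 390 list medians under an alternative, 49 moved by more than their spread between libraries. Precision was limited by 2 libraries per group and by the spread between the Nutlin libraries, whose log2 difference had an SD of 0.455 over genes against 0.252 between the combination libraries.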
